A study of Mus musculus with 13 samples.

Results

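The DEAD and DEAH box genes encode RNA helicases that take part in every stage of the life of an RNA. They were taken as the rows of the gene count table whose symbol begins with Ddx or Dhx and a digit, leaving out Ddx3y, which gave 47 genes of 12009 rows. Of these, 32 carried a Ddx and 15 a Dhx symbol. The rule used names alone and no measured value.

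An RNA helicase uses ATP to unwind an RNA duplex or to pull a protein off an RNA. The family is named after a short acidic motif in the ATP-binding core, spelled D-E-A-D in one branch and D-E-A-H or a close variant in the other. Nucleolar members remodel the precursor of ribosomal RNA, splicing members drive the rearrangements of the spliceosome, and cytoplasmic members act in translation, storage and decay of mRNA. By their known main place of work, 16 members were grouped as nucleolar, 10 as splicing, 9 as cytoplasmic, 5 as nuclear with several roles, 2 as mitochondrial and 5 as other. Most of these proteins work in every cell, and none is known as a marker of noradrenergic neurons.

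The mice were hemizygous Slc6a2-eGFP/Rpl10a animals on a C57BL/6 background, aged 6 to 8 months, in which the promoter of the norepinephrine transporter gene drives a green fluorescent ribosomal protein. All groups carried this transgene. Translating ribosome affinity purification (TRAP) pulls down these tagged ribosomes with the mRNAs on them, and the input is RNA of the whole hindbrain without cerebellum. DSP-4, a toxin that damages noradrenergic axons, was injected at 50 mg/kg on days 1 and 7, controls received saline, and tissue was taken on day 14. There were 6 DSP-4 TRAP, 2 DSP-4 input, 3 saline TRAP and 2 saline input libraries, and each library was a pool of 2 mice of the same sex and treatment. Because all noradrenergic neurons of the hindbrain carry the tag, the TRAP RNA is not that of the locus coeruleus alone. The study kept saline libraries only where Slc6a2 was enriched, so the enrichment of that gene in them is a condition of entry. Levels are given as CPM, counts scaled to a common library size, after TMM scaling, which sets most genes level between libraries. Whether the mice of a pool shared a litter or day is not given in the labels, so p-values measure the spread between these pools.

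The libraries held 17491357 to 29199550 counts. All 9 noradrenergic markers, Slc6a2 and Dbh among them, were higher in TRAP than in input in each treatment, with a summed level of 555 to 765 CPM in DSP-4 TRAP and 906 to 1073 CPM in saline TRAP, against 215 to 226 CPM in DSP-4 input and 251 to 283 CPM in saline input. Markers of other cells were measured in all TRAP libraries. The 2 serotonergic markers measured, Tph2 and Slc6a4, were at log2 fold changes of 1.46 and 0.46 over input in DSP-4. In saline they were at 1.05 and 0.50. The 3 cholinergic markers ran from -1.92 (Slc18a3) to 1.74 (Slc5a7) in DSP-4 and from -0.77 to 1.34 in saline. The 4 cerebellar granule markers ran from -0.56 to 0.96 in DSP-4 and from -0.08 to 2.88 in saline. The 7 oligodendrocyte markers summed to 5712 to 11933 CPM in DSP-4 TRAP and 6610 to 6909 CPM in saline TRAP, against 7007 to 7626 CPM in DSP-4 input and 7206 to 8025 CPM in saline input. The 7 astrocyte markers summed to 3125 to 4428 CPM in DSP-4 TRAP and 3632 to 3875 CPM in saline TRAP, against 2735 to 2805 CPM in DSP-4 input and 2903 to 2976 CPM in saline input. Of these 7, 4 were higher and 1 lower in TRAP in DSP-4, and 3 were higher and 1 lower in saline. The lower one was Gfap in each. Their part in the helicase values was not tested. In bulk libraries of this kind, fewer cells of a type and less RNA per cell cannot be told apart.

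The sequence that gives the family its name is shown for 6 members that span the range of the results, the strongest riser and the strongest faller of the nucleolar and of the splicing group, and the GC-poorest and GC-richest of the cytoplasmic group. Each line is 60 bases of the coding strand, with the 4 codons of the box in capitals.
Ddx10: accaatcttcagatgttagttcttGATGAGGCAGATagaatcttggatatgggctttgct
Ddx49: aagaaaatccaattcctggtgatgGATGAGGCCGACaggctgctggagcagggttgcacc
Ddx46: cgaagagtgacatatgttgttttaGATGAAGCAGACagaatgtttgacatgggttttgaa
Ddx41: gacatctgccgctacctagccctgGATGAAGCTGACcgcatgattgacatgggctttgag
Dhx36: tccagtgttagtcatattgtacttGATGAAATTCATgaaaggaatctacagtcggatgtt
Dhx34: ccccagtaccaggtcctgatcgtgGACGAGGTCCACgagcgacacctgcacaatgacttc
In mouse build GRCm38 these are chr9:53233977-53235281 for Ddx10 (exons 5 and 6, with an intron between) and chr8:70297277-70297893 for Ddx49 (exons 4 and 5, with an intron between). The others lie in a single exon, at chr13:55660734-55660793 for Ddx46 (exon 13), chr13:55533032-55533091 for Ddx41 (exon 10), chr3:62493830-62493889 for Dhx36 (exon 8) and chr7:16216366-16216425 for Dhx34 (exon 3). Ddx46 lies on the plus strand and the other 5 on the minus strand. The box spells D-E-A-D in the 4 Ddx genes, D-E-I-H in Dhx36 and D-E-V-H in Dhx34, and its codons and the bases around it differ between the genes. The 60 bases hold 40% G and C in Ddx10, 36.7% in Ddx46 and 35% in Dhx36, and 55% in Ddx49 and Ddx41 and 60% in Dhx34. The box was found in 45 of the 47 coding sequences. Its last codon was GAT or GAC (aspartate) in 31 of 32 Ddx genes and CAT or CAC (histidine) in 14 of 15 Dhx genes, and none was found in Ddx26b or Dhx32. Ddx26b is an older symbol of Ints6l, a relative of a subunit of the Integrator complex. It is a member by its symbol only.

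Levels were compared between genes per kilobase of exon. Ddx5, an abundant nuclear helicase that also serves as a transcription cofactor, had the highest mean over all 13 libraries at 128 CPM per kilobase, followed by Ddx3x at 61.3 and Ddx1 at 39.2 CPM per kilobase. Dhx34, a factor of nonsense-mediated mRNA decay, was lowest at 1.35 CPM per kilobase, followed by Dhx33 at 1.59 and Ddx26b at 2.02. All 47 members passed the low-count filter of the deposited table, since the table is what they were taken from, and members that it left out were not analysed here.

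TRAP was compared with input in each treatment to ask which helicase mRNAs were richer on the ribosomes of noradrenergic neurons than in the hindbrain. In the DSP-4 libraries, 18 of 47 members were higher and 2 lower in TRAP, and in the saline libraries 12 were higher and 1 lower (edgeR quasi-likelihood test, false discovery rate, FDR, under 0.1 over all rows). Over all 12009 rows, 27.3% were higher and 23.8% lower in the DSP-4 libraries, 51.1% in all, and 19.5% were higher and 15.7% lower in the saline libraries, 35.1% in all. The helicases thus had 38.3% higher and 4.26% lower in DSP-4 and 25.5% higher and 2.13% lower in saline, with a share of higher members above the background and a share of lower members below it. Median log2 fold changes were 0.33 for the members and -0.01 for all rows in DSP-4, and 0.26 for the members and -0.02 for all rows in saline. These shares are a description, since members of a family are not replicates.

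The counts rested on few input libraries. Without DSP-4 input replicate 7, 10 members were called in DSP-4, and in saline 7 were called without saline input replicate 5 and 5 without saline input replicate 12. Over all rows 6135 were called in DSP-4 and 4217 in saline, against 3678 in DSP-4 without that DSP-4 input library, and 2431 and 2100 in saline without those saline input libraries. Without DSP-4 TRAP replicates 2 and 3, 27 members and 7477 rows were called in DSP-4 and 20 members and 5675 rows in saline. With the pool of mice as a fixed block, 19 members and 4179 rows were called in DSP-4. That fit uses the 3 homogenates that gave both a TRAP and an input library, DSP-4 replicates 2 and 7 and saline replicate 12. Saline thus rests on a single pair there, and the FDRs of that fit, here and below, do not measure the spread between pairs. In the libraries themselves, 9 members had all 9 TRAP values above all 4 input values (Ddx10, Ddx17, Ddx3x, Ddx42, Ddx46, Ddx5, Ddx52, Dhx36 and Dhx40) and 3 had them below (Ddx27, Ddx49 and Dhx32), where 18.2% and 15.9% of all rows did so. Within DSP-4, 14 members lay above and 4 below, against 26.4% and 24.3% of all rows, and within saline 22 lay above and 7 below, against 29.6% and 30.2%. Within the 3 homogenates, 27 members were higher in TRAP in each pair and 8 lower in each, against 33.7% and 35.0% of all rows.

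**Figure D1:**
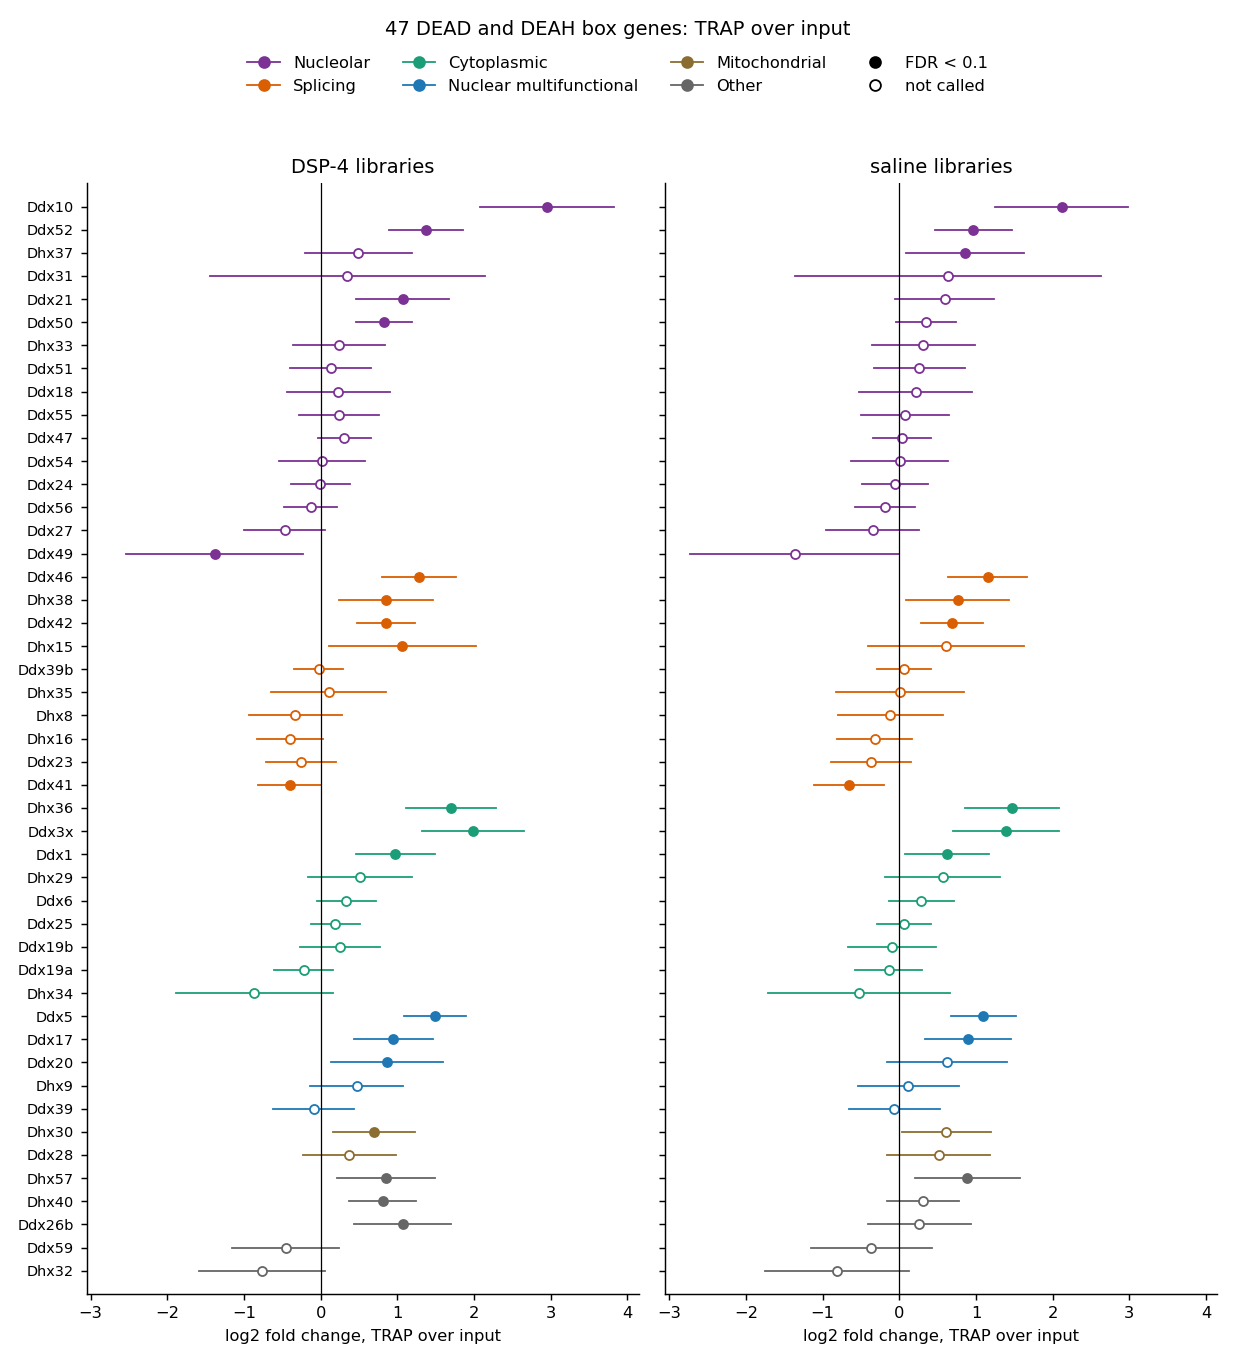
Log2 fold change of TRAP over input for each of the 47 helicase genes, in the DSP-4 libraries (left) and the saline libraries (right), ordered by role and by the saline value. Points are edgeR estimates, lines their 95% intervals, and filled points have an FDR under 0.1. Ddx10 lies farthest to the right in each panel and Ddx49 farthest to the left.

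Nucleolar helicases were the largest group. In DSP-4, 4 of 16 were higher (Ddx10, Ddx52, Ddx21 and Ddx50) and 1 lower (Ddx49), and in saline 3 were higher (Ddx10, Ddx52 and Dhx37) and none lower. The higher members made up 25.0% in DSP-4 and 18.8% in saline, near the 27.3% and 19.5% of all rows. The lower member made up 6.25% in DSP-4, against 23.8% of all rows, and all rows had 15.7% lower in saline. The median of the group was 0.24 in DSP-4 and 0.23 in saline on the log2 scale, and 12 of 16 estimates were positive in each.

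Ddx10, the relative of yeast Dbp4 that acts on the precursor of the small ribosomal subunit, lies at chr9:53098635-53248053. It had a lowest, median and highest value of 8.83, 21.5 and 29.9 CPM in DSP-4 TRAP, against 2.94 and 2.44 CPM in DSP-4 input. It had 18.2, 19.7 and 18.0 CPM in saline TRAP, against 5.33 and 3.21 CPM in saline input. No TRAP library overlapped an input library, and the log2 fold change was 2.95 ± 0.41 (SE) in DSP-4 (FDR 5.2e-05) and 2.12 ± 0.41 in saline (FDR 0.0018), which is 7.72-fold and 4.34-fold. It was past the threshold under all alternatives run, and each homogenate gave a similar value, 2.93 and 3.03 in the DSP-4 pairs and 2.47 in the saline pair.

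Ddx52, the relative of yeast Rok1 in the same pathway, had 38.7, 48.6 and 60.9 CPM (lowest, median, highest) in DSP-4 TRAP, against 20.6 and 17.2 CPM in DSP-4 input. It had 45.4, 35.7 and 46.6 CPM in saline TRAP, against 25.1 and 18.5 CPM in saline input. TRAP and input did not overlap, and the log2 fold change was 1.37 ± 0.23 in DSP-4 (FDR 0.00019) and 0.97 ± 0.24 in saline (FDR 0.0078, and 0.12 without saline input replicate 12).

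Ddx49, the relative of yeast Dbp8, went the other way. It had 1.34, 7.66 and 10.6 CPM (lowest, median, highest) in DSP-4 TRAP, against 17.7 and 18.5 CPM in DSP-4 input, and 11.7, 6.03 and 2.63 CPM in saline TRAP, against 19.7 and 15.2 CPM in saline input. All 9 TRAP values lay below all 4 input values, but they spread widely. The log2 fold change was -1.38 ± 0.54 in DSP-4 (FDR 0.051) and -1.37 ± 0.64 in saline (FDR 0.13). The DSP-4 call was lost without either DSP-4 input library (FDR 0.16 without replicate 2 and 0.20 without replicate 7). With the fixed block, which compares libraries of the same homogenate, the saline estimate was -2.53, from the 1 pair of replicate 12. The exons of Ddx49 share 29.9% of their length with Homer3 on the other strand, and without the strand setting of the counting, reads of the 2 genes may not be separated.

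Ddx21, which links ribosomal RNA transcription with processing, and its paralog Ddx50 were called in DSP-4 only. Ddx21 had 13.98, 26.3 and 30.7 CPM (lowest, median, highest) in DSP-4 TRAP, against 12.99 and 10.15 CPM in DSP-4 input, and 21.0, 21.6 and 23.4 CPM in saline TRAP, against 17.1 and 12.1 CPM in saline input. Its log2 fold change was 1.07 ± 0.29 in DSP-4 (FDR 0.0070, and 0.11 without DSP-4 input replicate 7) and 0.59 ± 0.30 in saline (FDR 0.16). Ddx50 had 59.7, 72.4 and 84.0 CPM in DSP-4 TRAP, against 45.7 and 36.3 CPM in DSP-4 input, and 68.8, 76.5 and 70.5 CPM in saline TRAP, against 61.5 and 51.4 CPM in saline input. Its log2 fold change was 0.83 ± 0.17 in DSP-4 (FDR 0.0013) and 0.35 ± 0.19 in saline (FDR 0.18). The TRAP levels of the 2 treatments overlapped for each gene, and the DSP-4 input values were below those of saline for Ddx50.

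Dhx37, the relative of yeast Dhr1 that releases the U3 RNA from the pre-ribosome, was called in saline only, at 0.85 ± 0.36 (FDR 0.095), and had 0.49 ± 0.33 in DSP-4 (FDR 0.24). It had 8.50, 13.4 and 20.4 CPM (lowest, median, highest) in DSP-4 TRAP, against 11.6 and 8.32 CPM in DSP-4 input. It had 16.9, 10.4 and 20.3 CPM in saline TRAP, against 7.77 and 9.78 CPM in saline input. The saline call was close to the threshold and was lost when any 1 of the 4 input libraries was left out (FDR 0.11 to 0.37) and under the fixed block (FDR 0.30). The other 10 nucleolar members were called in neither treatment, with saline values from -0.35 for Ddx27 to 0.64 for Ddx31. Ddx31 had 0 counts in DSP-4 TRAP replicate 3, which allows up to 0.123 CPM by counting error, and 9.18 to 13.1 CPM in the other 5 DSP-4 TRAP libraries.

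**Figure D2:**
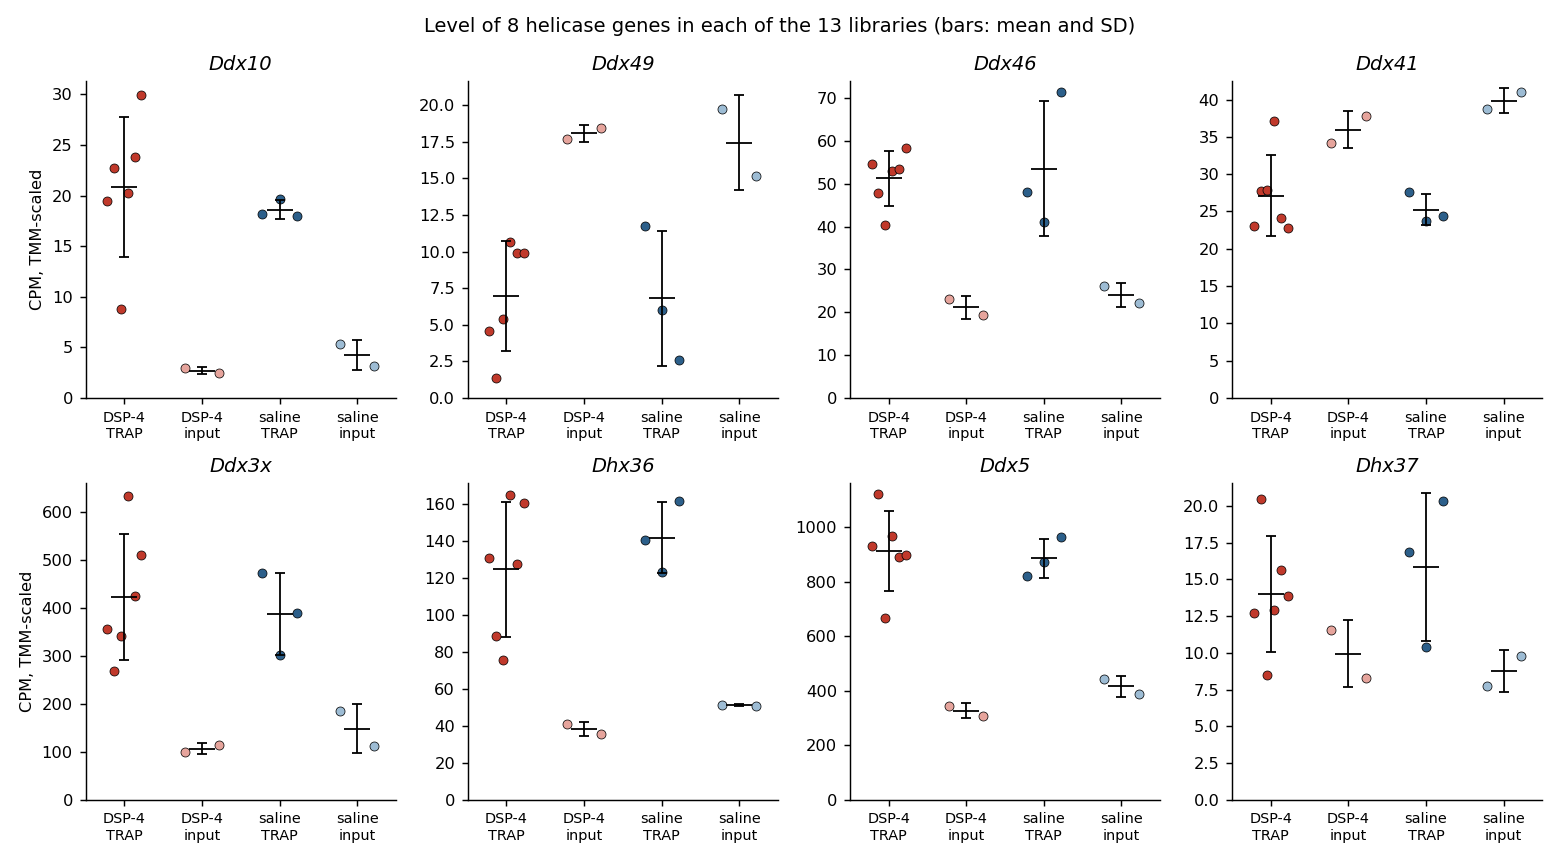
Level (CPM, TMM-scaled) of 8 helicase genes in each of the 13 libraries, 1 point per library, with the mean and SD of each group as bars. In Ddx10, Ddx46, Ddx3x, Dhx36 and Ddx5 every TRAP point lies above every input point, and in Ddx49 every TRAP point lies below, while TRAP and input overlap in Ddx41 and Dhx37.

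Splicing helicases were split. In DSP-4, 4 of 10 were higher (Ddx46, Ddx42, Dhx38 and Dhx15) and 1 lower (Ddx41). In saline 3 were higher (Ddx46, Ddx42 and Dhx38) and 1 lower (Ddx41). The higher members made up 40% in DSP-4 and 30% in saline, against 27.3% and 19.5% of all rows. The lower member made up 10% in each, against 23.8% and 15.7% of all rows. The median was 0.04 in DSP-4 and 0.03 in saline, and in saline it was -0.0051 under upper-quartile scaling.

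Ddx46 (yeast Prp5) and Ddx42 both act with the U2 snRNP at the branch site. Ddx46 had 40.3, 53.2 and 58.4 CPM (lowest, median, highest) in DSP-4 TRAP, against 23.0 and 19.3 CPM in DSP-4 input, and 48.1, 41.1 and 71.3 CPM in saline TRAP, against 26.1 and 22.1 CPM in saline input. The groups did not overlap, and the log2 fold change was 1.28 ± 0.23 in DSP-4 (FDR 0.00036) and 1.15 ± 0.24 in saline (FDR 0.0031). Ddx42 had 80.9, 92.6 and 113 CPM in DSP-4 TRAP, against 57.9 and 46.0 CPM in DSP-4 input, and 91.2, 86.4 and 108 CPM in saline TRAP, against 61.2 and 57.4 CPM in saline input. It did not overlap either, at 0.86 ± 0.18 in DSP-4 (FDR 0.0012) and 0.69 ± 0.19 in saline (FDR 0.016). The saline call of Ddx42 was lost without saline input replicate 12 (FDR 0.12) and under the fixed block (FDR 0.22).

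Dhx38 (yeast Prp16), which drives the second step of splicing, had 22.2, 40.4 and 60.4 CPM (lowest, median, highest) in DSP-4 TRAP, against 24.6 and 19.9 CPM in DSP-4 input, and 30.1, 33.6 and 39.7 CPM in saline TRAP, against 18.1 and 22.7 CPM in saline input. Its log2 fold change was 0.85 ± 0.29 in DSP-4 (FDR 0.027, and 0.22 without DSP-4 input replicate 7) and 0.76 ± 0.31 in saline (FDR 0.086). The saline call was lost when any 1 of the 4 input libraries was left out (FDR 0.11 to 0.37) and under the fixed block (FDR 0.34). Dhx15 (yeast Prp43), which takes the spliceosome apart, had a wide spread of 24.1, 91.5 and 164 CPM in DSP-4 TRAP, against 46.5 and 45.8 CPM in DSP-4 input. It was lowest in DSP-4 TRAP replicate 2. Its log2 fold change was 1.06 ± 0.45 in DSP-4 (FDR 0.069, 0.23 without DSP-4 input replicate 2, 0.25 without replicate 7 and 0.37 under the fixed block) and 0.61 ± 0.48 in saline (FDR 0.37).

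Ddx41, a component of the active spliceosome, was the one member called lower in each treatment. It had 22.8, 26.0 and 37.1 CPM (lowest, median, highest) in DSP-4 TRAP, against 34.2 and 37.7 CPM in DSP-4 input, and 27.7, 23.8 and 24.3 CPM in saline TRAP, against 38.7 and 41.0 CPM in saline input. Only DSP-4 TRAP replicate 7 reached into the range of the input. The log2 fold change was -0.41 ± 0.19 in DSP-4 (FDR 0.099) and -0.66 ± 0.22 in saline (FDR 0.036). The call was lost under the fixed block in DSP-4 (FDR 0.78) and in saline (FDR 0.39), without either saline input library in saline (FDR 0.11 and 0.17), and when any 1 of the 4 input libraries was left out in DSP-4 (FDR 0.12 to 0.40). The exons of Ddx41 share 17.4% of their length with an antisense gene. The other 5 splicing members, Ddx23, Ddx39b, Dhx16, Dhx35 and Dhx8, were called in neither treatment.

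Cytoplasmic helicases held 3 of 9 higher members in each treatment, the same genes Dhx36, Ddx3x and Ddx1, and none lower. The higher members made up 33.3%, against 27.3% of all rows in DSP-4 and 19.5% in saline. All rows had 23.8% lower in DSP-4 and 15.7% in saline. The median was 0.33 in DSP-4 and 0.29 in saline.

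Ddx3x, which helps ribosomes through structured 5′ leaders, is X-linked. It had 269, 390 and 634 CPM (lowest, median, highest) in DSP-4 TRAP, against 99.0 and 114 CPM in DSP-4 input, and 472, 301 and 390 CPM in saline TRAP, against 184 and 112 CPM in saline input. No TRAP value came down to the input values, and the log2 fold change was 1.99 ± 0.31 in DSP-4 (FDR 0.00014) and 1.39 ± 0.32 in saline (FDR 0.0056, and 0.101 without saline input replicate 12). Dhx36, which unfolds G-quadruplexes in RNA and DNA, had 75.7, 129 and 165 CPM in DSP-4 TRAP, against 41.0 and 35.8 CPM in DSP-4 input, and 141, 123 and 162 CPM in saline TRAP, against 51.4 and 50.9 CPM in saline input. It did not overlap either, at 1.70 ± 0.28 in DSP-4 (FDR 0.00017) and 1.47 ± 0.29 in saline (FDR 0.0021).

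Ddx1, a part of the tRNA ligase complex, had 162, 223 and 311 CPM (lowest, median, highest) in DSP-4 TRAP, against 114 and 115 CPM in DSP-4 input. It had 267, 173 and 268 CPM in saline TRAP, against 167 and 140 CPM in saline input. The log2 fold change was 0.97 ± 0.24 in DSP-4 (FDR 0.0042) and 0.62 ± 0.26 in saline (FDR 0.086). The saline call was lost when any 1 of the 4 input libraries was left out (FDR 0.11 to 0.37) and under the fixed block (FDR 0.21). Dhx29, which assists scanning, was at 0.51 ± 0.32 in DSP-4 and 0.56 ± 0.35 in saline, and Ddx6, a factor of mRNA decapping and storage, at 0.33 ± 0.18 in DSP-4 and 0.29 ± 0.20 in saline, neither called. The lowest estimate of the group was that of Dhx34, at -0.87 ± 0.48 in DSP-4 and -0.52 ± 0.56 in saline.

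Of the nuclear helicases with several roles, 3 of 5 were higher in DSP-4 (Ddx5, Ddx17 and Ddx20) and 2 in saline (Ddx5 and Ddx17). These are 60% and 40%, against 27.3% and 19.5% of all rows. Ddx5 had 667, 915 and 1123 CPM (lowest, median, highest) in DSP-4 TRAP, against 345 and 307 CPM in DSP-4 input, and 823, 874 and 963 CPM in saline TRAP, against 444 and 388 CPM in saline input. It had the smallest p of all members in each treatment, at 1.49 ± 0.19 in DSP-4 (FDR 2.7e-05) and 1.09 ± 0.20 in saline (FDR 0.0013), and no alternative took the call away. Ddx17, its paralog, had 169, 255 and 361 CPM in DSP-4 TRAP, against 128 and 140 CPM in DSP-4 input, and 203, 220 and 307 CPM in saline TRAP, against 116 and 145 CPM in saline input. It did not overlap, at 0.95 ± 0.24 in DSP-4 (FDR 0.0051) and 0.89 ± 0.26 in saline (FDR 0.020, 0.18 without saline input replicate 5 and 0.14 under the fixed block). Reads of stretches that Ddx5 and Ddx17 share could be assigned to either gene.

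Ddx20 (Gemin3), a part of the SMN complex that assembles snRNPs, was at 0.87 ± 0.34 in DSP-4 (FDR 0.053, 0.20 without DSP-4 input replicate 2 and 0.22 without replicate 7) and 0.62 ± 0.37 in saline (FDR 0.23). Dhx9, also called RNA helicase A, was at 0.47 ± 0.29 in DSP-4 (FDR 0.20) and 0.11 ± 0.31 in saline. Under the fixed block it passed the threshold in DSP-4 (0.77 ± 0.35, FDR 0.090).

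Both mitochondrial members encode factors of the mitochondrial ribosome. Dhx30 had 69.8, 115 and 173 CPM (lowest, median, highest) in DSP-4 TRAP, against 72.9 and 73.2 CPM in DSP-4 input, and 99.0, 107 and 135 CPM in saline TRAP, against 66.1 and 83.1 CPM in saline input. It was called in DSP-4 at 0.70 ± 0.25 (FDR 0.034, 0.16 without DSP-4 input replicate 2 and 0.17 without replicate 7) and had nearly the same value in saline, 0.61 ± 0.27, with an FDR of 0.11. Ddx28 was at 0.37 ± 0.29 in DSP-4 and 0.51 ± 0.32 in saline and was not called.

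In the remaining group, Dhx57 was called in each treatment. It had 14.7, 28.2 and 36.1 CPM (lowest, median, highest) in DSP-4 TRAP, against 16.9 and 13.5 CPM in DSP-4 input, and 31.6, 34.6 and 46.3 CPM in saline TRAP, against 20.8 and 19.7 CPM in saline input. The log2 fold change was 0.85 ± 0.30 in DSP-4 (FDR 0.031, and 0.24 without DSP-4 input replicate 7) and 0.89 ± 0.33 in saline (FDR 0.055, 0.13 under the fixed block, 0.18 without saline input replicate 5 and 0.23 without replicate 12). Dhx40 was at 0.81 ± 0.21 in DSP-4 (FDR 0.0050, and 0.12 without DSP-4 input replicate 7) and 0.31 ± 0.22 in saline (FDR 0.33), with 19.7, 21.2 and 24.1 CPM (lowest, median, highest) in DSP-4 TRAP, against 14.3 and 10.48 CPM in DSP-4 input, and 19.1, 18.6 and 21.3 CPM in saline TRAP, against 14.6 and 17.3 CPM in saline input. Ddx26b, which has no box, was at 1.07 ± 0.30 in DSP-4 (FDR 0.0092, 0.13 without DSP-4 input replicate 7 and 0.28 under the fixed block) and 0.26 ± 0.32 in saline. Without it, 17 members were higher and 2 lower in DSP-4, and the saline counts were as before. Dhx32, the other gene with no box found, lay below input in all 9 TRAP libraries. It was not called at -0.76 ± 0.39 in DSP-4 (FDR 0.12, and 0.021 at -1.22 ± 0.43 under the fixed block) and -0.81 ± 0.44 in saline (FDR 0.19).

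The calls of the 2 treatments differed for 9 members: Dhx37 was called in saline only, and 8 in DSP-4 only (Ddx20, Ddx21, Ddx26b, Ddx49, Ddx50, Dhx15, Dhx30 and Dhx40), while 12 were called in each in the same direction and 26 in neither. Fitted on the saline libraries alone, 5 of these 8 were called in saline too, Dhx15 (FDR 0.028), Ddx49 (FDR 0.032), Dhx30 (FDR 0.034), Ddx21 (FDR 0.072) and Ddx20 (FDR 0.076), where 5182 of all rows were called (edgeR). The difference itself, tested as an interaction, passed for 0 of 47 members and 0 of 12009 rows (edgeR), with 0 members and 321 rows at an unadjusted p under 0.05, and 0 members called by DESeq2 or limma. The smallest p was 0.072, for Ddx50, with a difference of 0.48 ± 0.25. The median 95% half-width of these differences was 0.80 on the log2 scale, before adjustment over all rows. Differences of up to about that size were thus not detectable, and larger ones could be missed too. The largest estimate, 0.83, was not called. The DSP-4 arm holds 8 libraries and the saline arm 5.

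Nucleolar, splicing and cytoplasmic helicases were set side by side by the median of each group in each library, relative to the mean of the 4 input libraries. Nucleolar medians ran from -0.16 to 0.37 in DSP-4 TRAP and 0.08 to 0.48 in saline TRAP, against -0.13 to -0.01 in DSP-4 input and -0.01 to 0.14 in saline input. Cytoplasmic medians ran from 0.08 to 0.37 in DSP-4 TRAP and 0.10 to 0.38 in saline TRAP, against -0.09 to -0.03 in DSP-4 input and -0.02 to 0.17 in saline input. Splicing medians ran from -0.20 to 0.18 in DSP-4 TRAP and -0.02 to 0.23 in saline TRAP, against -0.06 to -0.04 in DSP-4 input and 0.03 to 0.04 in saline input. The 3 groups overlapped across libraries. Within each group single members spread far more than the medians did, from -1.38 to 2.95 in DSP-4 and -1.37 to 2.12 in saline among the nucleolar genes. The nuclear group with several roles stood higher, at 0.62 to 0.76 in saline TRAP, but reached -0.35 in 1 DSP-4 TRAP library.

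**Figure D3:**
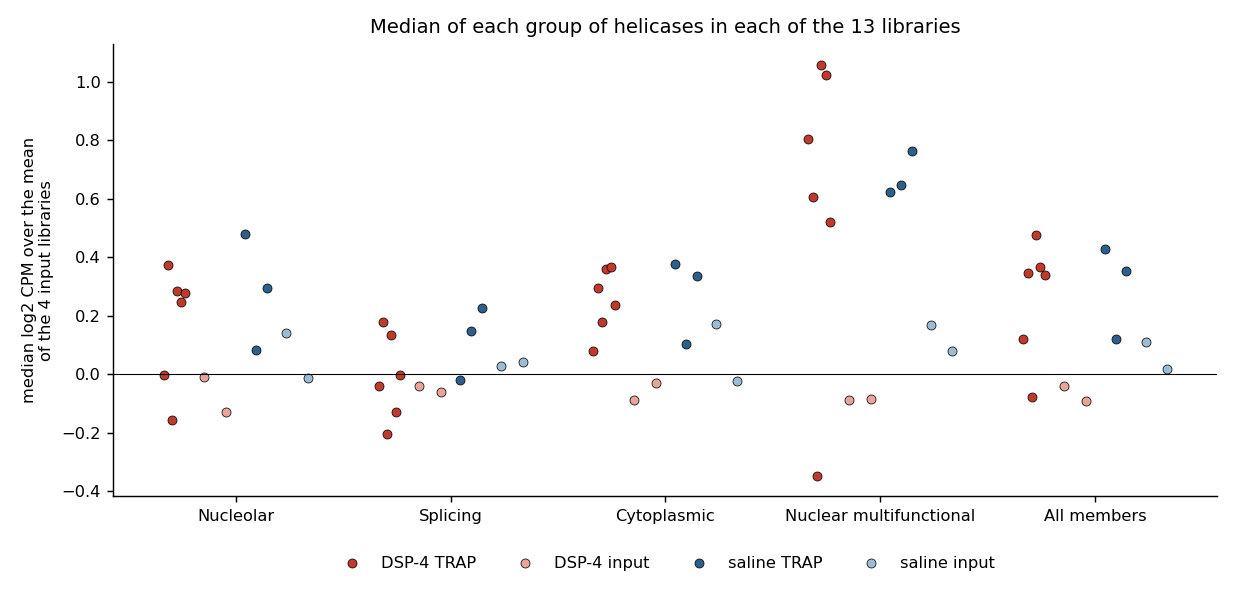
Median log2 CPM of 4 groups of helicases and of all 47 members in each library, relative to the mean of the 4 input libraries, 1 point per library, for DSP-4 TRAP, DSP-4 input, saline TRAP and saline input. The nuclear group with several roles reaches 1.06 in DSP-4 TRAP, while the splicing group stays between -0.20 and 0.23 in the TRAP libraries.

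The fold changes of the helicases followed the GC content of their transcripts, as those of all genes did. Across the 47 members, Spearman's rank correlation of the log2 fold change with the share of G and C in the gene's longest transcript was -0.66 in DSP-4 and -0.50 in saline, and across 11820 rows -0.58 in DSP-4 and -0.42 in saline. With GC content at the last position of each codon, which leaves the encoded protein mostly unchanged, the rank correlation across members was -0.74 in DSP-4 and -0.60 in saline. Genes are not independent replicates, and all these points share the same libraries, so the values are a description.

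With rows cut into 5 bins of near equal size by GC content, the lowest bin (30.97% to 43.9%) had 61.9% of its rows higher in TRAP in DSP-4 and 40.5% in saline, and of its 10 members 8 were higher in DSP-4 and 4 in saline. In the GC-richest bin (55.6% to 72.8%), 2.70% of rows were higher and 50.9% lower in DSP-4, and 3.84% were higher and 31.2% lower in saline. Of its 9 members, 2 were higher and 2 lower in DSP-4, and 2 were higher and 1 lower in saline. Among the GC-rich members, Dhx37 (56.5%), Dhx38 (56.9%) and Dhx30 (55.9%) stood 1.07, 1.43 and 1.28 above the median of their bin in DSP-4 and 1.27, 1.18 and 1.02 above it in saline.

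When the GC trend of each library was taken out as an offset, 17 members were higher and 1 lower in DSP-4, and 13 were higher and 1 lower in saline. Of 11820 rows with a GC value, 2599 were then higher and 2389 lower in DSP-4, and 1948 were higher and 1722 lower in saline. Of the 20 members called in DSP-4 without the offset, 13 were still called and 5 others were new, and of the 13 in saline 11 were still called and 3 were new. Ddx10, Ddx52, Ddx46, Ddx42, Ddx3x, Dhx36, Ddx5, Ddx17, Dhx38 and Dhx57 remained higher in each treatment. Dhx37, Dhx30 and Ddx28 were then higher in each treatment, at 0.97, 1.14 and 0.82 in DSP-4 and 1.17, 0.90 and 0.78 in saline. Ddx24 (40.3% GC), the relative of yeast Mak5 that acts on the large ribosomal subunit, had been at -0.01 in DSP-4 and -0.05 in saline. It was lower with the offset, at -0.86 ± 0.16 in DSP-4 (FDR 0.0010) and -0.56 ± 0.19 in saline (FDR 0.042). That call rests on the GC content of its longest transcript. The coding sequence of Ddx24 alone holds 52.0% G and C, and an offset by that value was not run. The call of Ddx41 was lost, at 0.066 in DSP-4 (FDR 0.83) and -0.36 in saline (FDR 0.26), as was that of Ddx50 in DSP-4, at -0.22 (FDR 0.25). The other DSP-4 calls lost were those of Ddx49, at -0.72 (FDR 0.38), Ddx20, at 0.65 (FDR 0.14), Dhx15, at 0.46 (FDR 0.40), Ddx26b, at 0.24 (FDR 0.52), and Dhx40, at 0.23 (FDR 0.39), and in saline Ddx1 was at 0.40 (FDR 0.22). Set against rows in the same GC bin, the saline medians were 0.24 for nucleolar, 0.13 for splicing and -0.09 for cytoplasmic members, and in DSP-4 they were 0.23, 0.21 and -0.07. By median, the 9 cytoplasmic helicases were above the 10 splicing helicases before, and below them with GC content taken into account. The groups had overlapped across libraries, and their order was not tested. The part of GC content in these differences was not tested beyond the offset.

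**Figure D4:**
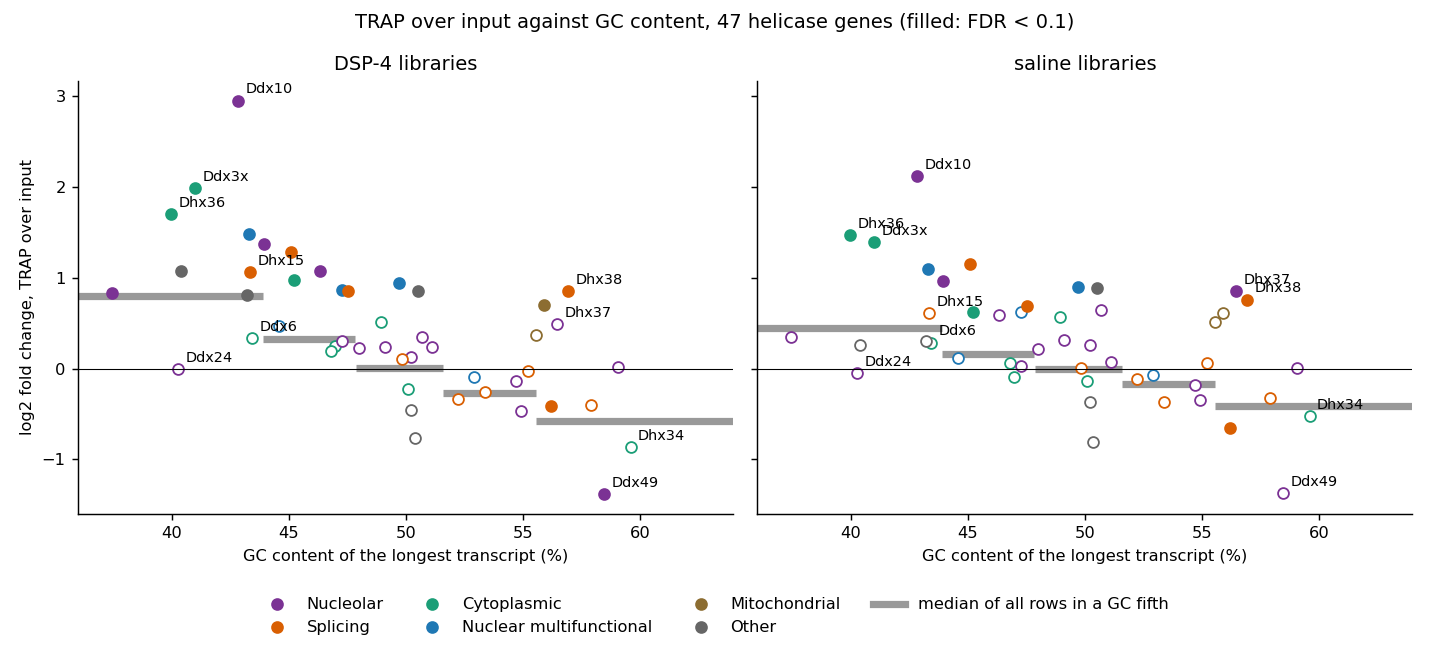
Log2 fold change of TRAP over input against the GC content of each gene's longest transcript (%), for the 47 helicase genes in the DSP-4 libraries (left) and the saline libraries (right). Colours give the role, filled points have an FDR under 0.1, and grey bars are the medians of all rows in 5 bins of GC content, which run from 0.79 to -0.58 in DSP-4 and from 0.44 to -0.42 in saline. Ddx10, Ddx3x, Dhx36, Dhx37 and Dhx38 lie above the bars of their bins and Ddx24 and Ddx49 below.

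Genes that work beside the helicases gave the setting, to be read against the 27.3% higher and 23.8% lower in DSP-4 and the 19.5% higher and 15.7% lower in saline among all rows. Of 50 measured nucleolar ribosome biogenesis factors that are not Ddx or Dhx genes, 18 were higher and 10 lower in DSP-4, and 12 were higher and 5 lower in saline, with medians of 0.29 in DSP-4 and 0.25 in saline. Among them Esf1, a factor of the small subunit, averaged 29.8 CPM in DSP-4 TRAP against 3.58 CPM in DSP-4 input, and 36.03 CPM in saline TRAP against 5.47 CPM in saline input (log2 fold changes 3.05 and 2.72). Wdr43 rose by 1.73 in DSP-4 and 0.86 in saline, and Ncl, nucleolin, by 1.15 in saline, while Bop1 was lower in saline at -0.76. In DSP-4, Ncl averaged 277 CPM in TRAP against 95.8 CPM in input, and Bop1 26.4 against 42.8 CPM. Npm1 and Dkc1 were higher in DSP-4, at 1.58 and 1.39. In saline, Npm1 averaged 214 CPM in TRAP against 116 CPM in input, and Dkc1 33.3 against 22.3 CPM.

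Of 27 spliceosome proteins that are not helicases, 9 were higher (33.3%) and 6 lower (22.2%) in each treatment. Cdc5l was at 1.98 in DSP-4 and 1.83 in saline, Sf3b1, the U2 protein that Ddx46 works beside, at 1.61 and 1.20, and Sf3b4 at -1.41 and -1.625 (the DSP-4 value before the saline value in each, all called). Of 27 translation initiation factors, 12 were higher (44.4%) and 5 lower (18.5%) in DSP-4, and 7 were higher (25.9%) and 3 lower (11.1%) in saline. Eif4g3 was at 2.36 in DSP-4 and 2.18 in saline, Eif3j1 at 1.56 and 1.16 and Eif2s2 at 1.22 and 0.92, in the same order. Eif3a was higher at 1.76 in saline and Eif3f lower at -1.09 in DSP-4. Of 15 measured RNA helicases without a Ddx or Dhx symbol, 7 were higher (46.7%) and 1 lower (6.67%) in DSP-4. In saline 5 were higher (33.3%) and 1 lower (6.67%). This list holds Eif4a2 and Eif4a3, which are DEAD box genes that the rule by symbol left out of the 47. Helz was at 1.52 in DSP-4 and 1.59 in saline and Ascc3 at 1.76 and 1.496. Ythdc2 was at 1.503 in saline, and averaged 18.1 CPM in DSP-4 TRAP against 4.91 CPM in DSP-4 input. Skiv2l2 was at 1.40 in DSP-4, and averaged 72.0 CPM in saline TRAP against 41.6 CPM in saline input. Each of these lists thus held both higher and lower genes.

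DSP-4 was compared with saline in TRAP to ask whether axon damage changed helicase mRNAs in the neurons. None of the 47 members was called (edgeR, FDR under 0.1), none had an unadjusted p under 0.05 (226 of all rows did), and none was called by DESeq2 or limma. Over all rows 0.025% were called, 3 genes, all noradrenergic markers. No member had all DSP-4 TRAP libraries above or below all saline TRAP libraries, where 0.716% and 0.558% of all rows did. Estimates lay between -0.46 and 0.47 with a median of -0.03, and for 42 of 47 members the 95% interval stayed within 1 log2 unit of 0, for 20 of them within 1.5-fold. Changes of 2-fold or more in the TRAP RNA as a whole were thus outside the interval for most members. That RNA also held mRNAs of other cells, so the intervals do not bound a change in the neurons alone. Of the markers of other cells in these libraries, the 3 pituitary genes summed to 6.87 to 490 CPM in DSP-4 TRAP, against 16.1 to 39.4 CPM in saline TRAP, with all 3 estimates above 0 and at an unadjusted p under 0.05 (median 3.79, none called), and the 9 microglial markers to 211 to 334 CPM in DSP-4 TRAP, against 195 to 219 CPM in saline TRAP, with 8 estimates above 0 (median 0.30, none called). Their part in the helicase estimates was not tested.

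The smallest p was that of Ddx26b, with 12.3, 17.0 and 25.9 CPM (lowest, median, highest) in DSP-4 TRAP, against 13.01, 13.9 and 12.4 CPM in saline TRAP, at 0.47 ± 0.25 (p 0.083, FDR 0.9998, edgeR). Of the other estimates above 0, Ddx52 was at 0.19 ± 0.18, Ddx19b at 0.19 ± 0.22 and Dhx38 at 0.21 ± 0.25. Below 0, Dhx57 had 14.7, 28.2 and 36.1 CPM in DSP-4 TRAP, against 31.6, 34.6 and 46.3 CPM in saline TRAP, at -0.46 ± 0.26 (p 0.099, FDR 0.9998, edgeR). Dhx8 was at -0.33 ± 0.27, Dhx33 at -0.24 ± 0.26 and Dhx36 at -0.19 ± 0.23. All these groups overlapped. Of the other members that were higher in TRAP than in input in each treatment, Ddx10 was at 0.15 ± 0.29, Ddx3x at 0.12 ± 0.24 and Ddx5 at 0.03 ± 0.16.

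The DSP-4 TRAP libraries differed among themselves. The median coefficient of variation of the members was 26.0% over the 6 DSP-4 TRAP libraries and 15.7% over the 3 saline TRAP libraries, against 22.6% and 16.4% for all rows. Of the 47 members, 20 had their lowest DSP-4 TRAP value in replicate 3, 13 their lowest and 13 their highest in replicate 2, and 17 their highest in replicate 7. Among all rows, 20.6% were lowest in replicate 3, 28.1% lowest and 29.5% highest in replicate 2, and 14.9% highest in replicate 7. Without DSP-4 TRAP replicates 2 and 3, no member was called either.

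In the input libraries, DSP-4 against saline, no member and no row was called (edgeR), with 1 member and 306 rows at an unadjusted p under 0.05 and no member called by DESeq2 or limma. Fitted on the 4 input libraries alone, 4 rows and no member were called, and 1355 rows had an unadjusted p under 0.05. The member under 0.05 was Ddx50, with 45.7 and 36.3 CPM in DSP-4 input, against 61.5 and 51.4 CPM in saline input, at -0.46 ± 0.20 (p 0.037, FDR 0.99996, edgeR). Estimates were below 0 for 31 of 47 members, with a median of -0.15 against -0.03 for all rows. Of those with the smallest p below 0, Ddx5 was at -0.35 ± 0.21, Ddx10 at -0.67 ± 0.44 and Ddx1 at -0.42 ± 0.28. Of the 16 above 0, those with the smallest p were Dhx34 at 0.34 ± 0.62, Dhx37 at 0.18 ± 0.39, Dhx38 at 0.13 ± 0.34 and Ddx39b at 0.03 ± 0.18. With 2 libraries against 2, 18 members had both DSP-4 values below both saline values, and 1, Dhx34, had both above, where 26.3% and 18.2% of all rows did so. The Spearman correlation of these estimates with GC content was 0.73 across the members and 0.65 across all rows. Each treatment's TRAP over input value rests on its own 2 input libraries. The part of the input libraries in the larger DSP-4 count of TRAP over input was not tested.

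**Figure D5:**
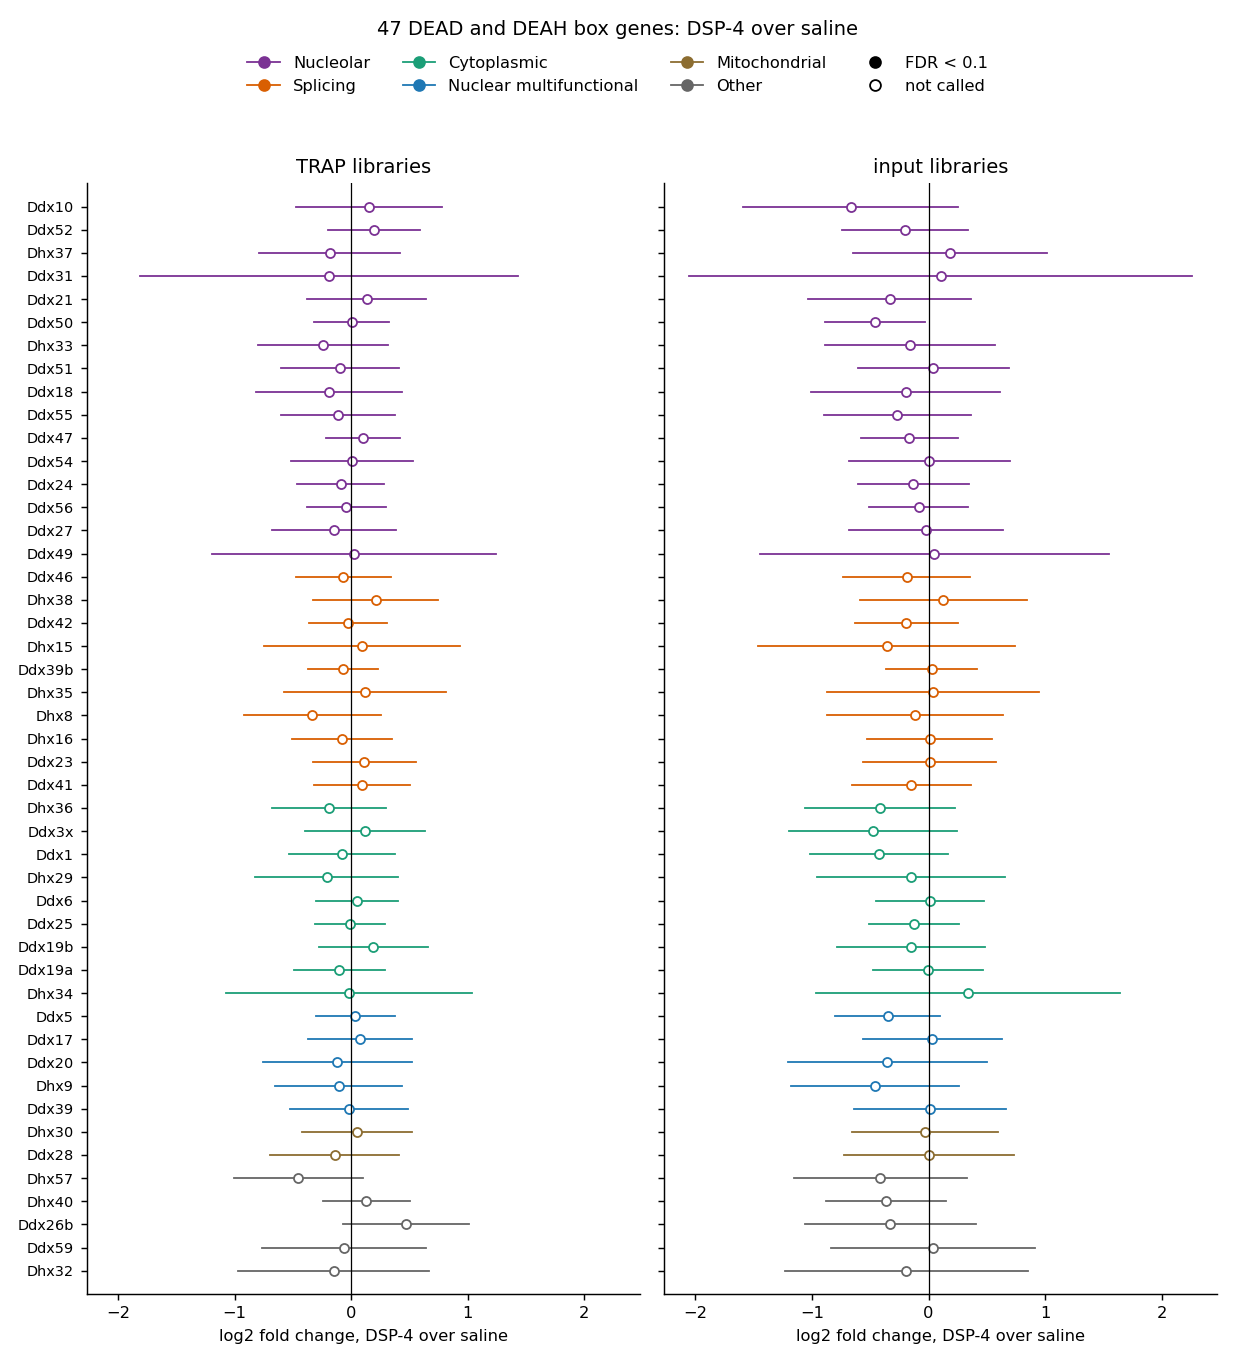
Log2 fold change of DSP-4 over saline for each of the 47 helicase genes, in the TRAP libraries (left) and the input libraries (right), in the order of the plot of TRAP over input. Points are edgeR estimates and lines their 95% intervals. All points are open since none has an FDR under 0.1, and TRAP estimates stay between -0.46 and 0.47.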

How the data were processed

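The deposited table holds whole-number read counts per gene for 13 libraries, which the authors made by aligning paired reads to mm10 with STAR and counting with featureCounts. Their versions, the annotation and the strand setting were not found in the labels or methods. The table is titled as normalized, but its values are whole and its column totals differ, so they were used as counts. The lowest mean count of a row was 78.4, so genes of low count are not in it. No value column was left out.

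Counts were TMM-scaled and fitted over all 12009 rows with edgeR 4.0.16 (quasi-likelihood, 1 mean per group, R 4.3.3), with Benjamini-Hochberg adjustment and a threshold of 0.1. Log2 CPM used a prior count of 1. All 13 libraries entered the fit of TRAP over input, of the interaction and of DSP-4 over saline in input, and the 9 TRAP libraries that of DSP-4 over saline in TRAP. The steps were tested on simulated data. Alternatives were RLE and upper-quartile scaling, DESeq2 1.42.0, limma 3.58.1, a filter of 5 CPM in 2 libraries, a GC offset (lowess span 0.3), leaving out each library or DSP-4 TRAP replicates 2 and 3, and a replicate block. Leaving out Ddx26b, or members that overlap another gene, was chosen after seeing the data. Per the study's methods each homogenate gave TRAP and input, and equal numbers in the labels mark 3 such pairs. Their deviations from group means correlated at 0.18, 0.27 and 0.30, while saline TRAP 4 and saline input 5, of unequal number, reached 0.38. With 2 input libraries in a group, their deviations mirror each other, so any TRAP library correlates positively with 1 of them. The correlations thus cannot decide whether the pairing holds. No libraries of a group were alike within sampling noise.

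Gene positions, GC content and coding sequences came from GENCODE vM21 (GRCm38); 11564 rows matched by name, 262 by a RefSeq synonym and 183 not at all. All 47 members matched. The row identifiers include 21 plain numbers, which were kept. The box was searched in the longest coding sequence behind the ATP-binding motif. Members and lists were chosen with earlier results of these data known. Named were the 4 members of smallest p in each role, those whose call differed between treatments, the 4 of smallest p in each direction for DSP-4 over saline, the 3 highest and 3 lowest per kilobase, and up to 4 genes of each companion list. Naming paralog pairs by protein identity was not done, since proteins were not analysed here.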

Additional observations from a re-analysis of the deposited data

Results flagged for a closer look

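Of 47 members, 6 had a DSP-4 TRAP library whose gap to the nearest of the other 5 was more than 0.625 of the whole range. Chance passes that limit in about 1 of 20 groups of normally distributed values. The gap was not computed over all rows, so the count cannot be set against them. In 4 of the 6 members it was replicate 2, the library that was lowest for 28.1% and highest for 29.5% of all rows. Dhx35 had 30.4 CPM in replicate 2, against 11.02 to 13.7 CPM in the others, and Ddx23 had 123 CPM there, against 66.0 to 79.3 CPM. Ddx56 had 56.2 CPM in replicate 2, against 39.6 to 44.9 CPM, and Ddx6 had 271 CPM, against 164 to 204 CPM. Ddx31 had 0.0 CPM in replicate 3, against 9.18 to 13.1 CPM in the others, and Ddx41 had 37.1 CPM in replicate 7, against 22.8 to 27.9 CPM.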

How the results depend on the processing

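Only 2 input libraries stand behind each treatment, and leaving out an input library changed calls. Leaving out 1 library at a time, the members called ranged from 10 to 25 in DSP-4 and from 5 to 17 in saline, and stayed at 0 in the other comparisons. Over all rows, the rows called ranged from 3678 to 6914 in DSP-4 and from 2100 to 5185 in saline. In saline, 20 were called in the saline libraries alone, 20 without DSP-4 TRAP replicates 2 and 3, and 7 with the fixed replicate block, which also changed the member calls given beside them; with a random block 15 were called in saline and 23 in DSP-4. The cause was not tested. With the GC offset the saline median was 0.16 for splicing and -0.056 for cytoplasmic members, and leaving out 1 library gave -0.01 to 0.08 for splicing, 0.11 to 0.29 for nucleolar and 0.21 to 0.43 for cytoplasmic members. Of 13 members called in saline 4 passed under every alternative (Ddx10, Ddx46, Ddx5 and Dhx36), and of 20 in DSP-4, 9 did (those 4 with Ddx1, Ddx17, Ddx3x, Ddx42 and Ddx52). Direction changed with the GC offset for Ddx41 (0.066) and Ddx50 (-0.22) in DSP-4. Among values that were never called, Dhx36 in TRAP turned to 0.040 without DSP-4 TRAP replicates 2 and 3. In input, the offset turned Ddx39b to -0.12 and Dhx38 to -0.045, and leaving out 1 library gave -0.096 to 0.15 for Ddx39b, -0.025 to 0.30 for Dhx38 and -0.062 to 0.40 for Dhx37. The filter on low values removed no row.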
